A study of Mus musculus with 3 samples.

Results

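The 10 genes described here, Myc, Max, Mxd1, Mxd3, Mxd4, Mxi1, Mnt, Mga, Mlx and Mlxip, encode the transcription factors of the MYC and MAX network. They were chosen by name and not by a rule on their values, though with earlier results of these data known, and all 10 were found by gene identifier among the 50600 genes of the tables. RNA was sequenced from mouse T-helper 1 (Th1) cells, CD4 helper T cells known for making interferon-gamma. The 3 libraries are replicates 1, 2 and 3 of 1 group, with 4442901, 3123869 and 2950658 counts, so no condition could be set against another. Every library came from primary cells of strain C57BL/6NJ, with no treatment, edited allele or transgene named, sex not collected and age unknown. The labels give the libraries separate biosamples but 1 shared donor entry, and do not say whether separate animals were used, so p-values measure only the spread between these samples, which may be technical. The file headers name 2 hours, which the labels do not explain. The assay is called total RNA-seq, while the linked library protocol is named for poly(A)+ RNA.

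In this network MAX is the common partner. MYC, a short-lived protein induced when T cells are activated, binds DNA only as a dimer with MAX, and MYC-MAX drives genes of growth, ribosome production and metabolism. MXD1, MXI1, MXD3, MXD4 and MNT compete for MAX and recruit SIN3 and histone deacetylases (HDACs) to repress such genes, and MGA places MAX in a variant Polycomb complex. MLX forms a parallel branch with MLXIP, also called MondoA, which responds to glucose-derived metabolites and drives Txnip and Arrdc4. Dimers of the network recognise the E-box hexamer CACGTG, and MLXIP-MLX recognises a pair of E-box-like sites, the carbohydrate response element (ChoRE).

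The E-box hexamer was present near the start of 4 network genes. Promoter windows, 250 bases before to 50 bases after a RefSeq start on GRCm38.p6 (the mm10 assembly), were matched by symbol for 9 of the 10 genes, all but Myc, with 3 windows for Mxi1 and 1 for each other gene. CACGTG, which reads the same on both strands, was found once each in the windows of Max, Mlx, Mnt and Mxd4. Those of Mga, Mlxip, Mxd1, Mxd3 and Mxi1 do not hold these letters. The 4 genes are 44.4% of the 9 matched, and by window 36.4% of 11. Among protein-coding genes that reached 1 TPM in every library, 12.6% of 6740 held the hexamer, as did 10.6% of their 8577 windows. Of all 32851 windows 7.15% did. A match describes letters only and shows no binding.

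The 4 stretches with the match are printed because they place the network's own recognition hexamer at genes of the network. Each runs 5′ to 3′ on the gene's strand, with the hexamer in capitals.
Max, chr12:76962246-76962498, minus strand: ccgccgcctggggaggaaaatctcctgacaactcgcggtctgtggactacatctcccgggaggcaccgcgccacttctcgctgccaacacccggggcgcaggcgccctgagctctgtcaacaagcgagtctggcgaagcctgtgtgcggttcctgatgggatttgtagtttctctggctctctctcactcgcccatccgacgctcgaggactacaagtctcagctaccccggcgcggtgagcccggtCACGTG
Mlx, chr11:101087040-101087276, plus strand: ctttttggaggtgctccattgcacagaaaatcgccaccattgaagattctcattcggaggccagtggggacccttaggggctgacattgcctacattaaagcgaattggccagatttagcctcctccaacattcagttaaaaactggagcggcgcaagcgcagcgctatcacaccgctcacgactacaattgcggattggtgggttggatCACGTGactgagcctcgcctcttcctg
Mnt, chr11:74830674-74830919, plus strand: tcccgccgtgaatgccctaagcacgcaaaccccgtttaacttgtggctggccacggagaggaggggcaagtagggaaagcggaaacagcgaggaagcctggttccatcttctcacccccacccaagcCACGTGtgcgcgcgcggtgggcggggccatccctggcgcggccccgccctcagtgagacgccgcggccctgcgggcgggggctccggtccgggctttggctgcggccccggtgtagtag
Mxd4, chr5:34187721-34187960, minus strand: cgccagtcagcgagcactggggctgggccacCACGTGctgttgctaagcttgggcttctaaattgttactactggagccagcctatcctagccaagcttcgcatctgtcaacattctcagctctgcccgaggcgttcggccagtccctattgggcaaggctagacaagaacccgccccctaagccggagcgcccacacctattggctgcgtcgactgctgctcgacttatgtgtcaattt

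In Max the hexamer spanned the RefSeq start itself, from base -3 to base 3. It lay at -40 to -35 in Mlx, at -123 to -118 in Mnt and at -219 to -214 in Mxd4. The 4 positions therefore ranged over most of the 250 bases before the start.

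A pair of target genes is printed for comparison: Cdk4, the cyclin-dependent kinase of the G1 phase, with 4 hexamers, and Txnip, a brake on glucose uptake, with the ChoRE. The ChoRE was searched on both strands as CACGNG, any 5 bases and CACGNG again, a pattern that can contain the E-box hexamer, and was found in 16 of 32851 windows (0.0487%).
Cdk4, chr10:127063285-127063533, plus strand: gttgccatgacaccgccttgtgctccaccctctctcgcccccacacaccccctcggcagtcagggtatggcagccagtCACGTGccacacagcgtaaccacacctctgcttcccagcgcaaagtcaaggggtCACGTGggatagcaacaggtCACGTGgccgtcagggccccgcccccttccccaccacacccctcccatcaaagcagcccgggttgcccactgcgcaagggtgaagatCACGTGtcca
Txnip, chr3:96557837-96557923, plus strand: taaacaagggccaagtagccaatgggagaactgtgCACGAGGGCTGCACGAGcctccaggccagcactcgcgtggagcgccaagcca

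Of 12 matched genes in a list of textbook MYC targets, 4 held the hexamer (33.3%), namely Cdk4, Eif4e, Ldha and Nme1. The Txnip ChoRE lay at -85 to -69, and none of the 11 windows of the network genes held one. Arrdc4, the other MLXIP-MLX target listed, held 1 E-box hexamer.

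**Figure D1:**
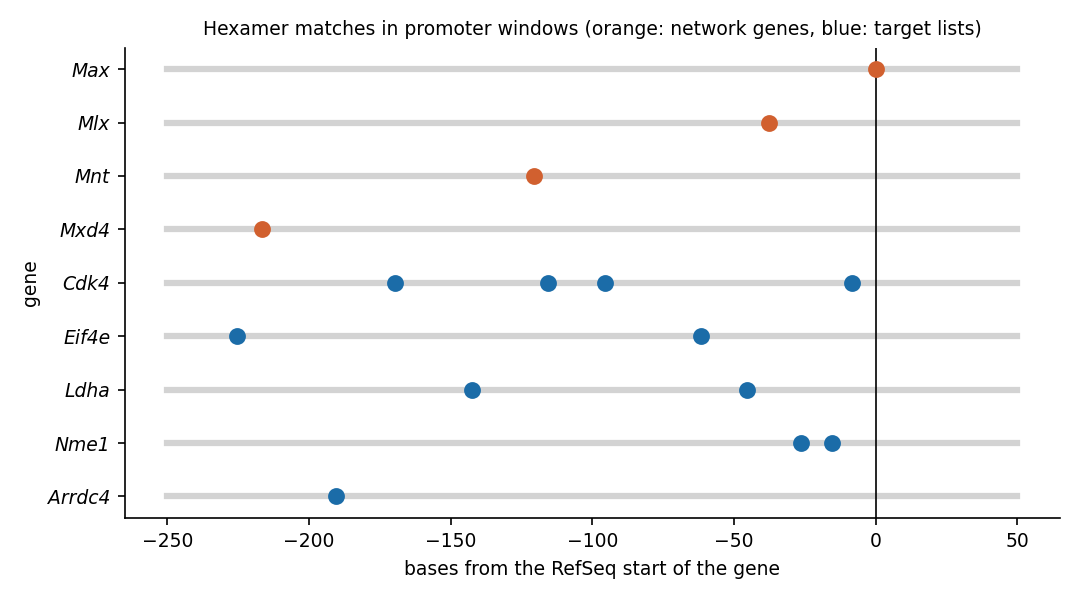
Position of each E-box hexamer (centre, in bases from the RefSeq start, x axis) for the network genes and target genes that hold one (y axis). Grey bars are the window of 250 bases before to 50 after the start. The 4 network genes hold 1 match each and Cdk4 holds 4. The pair of Nme1 matches comes from 2 different starts drawn on 1 line.

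All 10 network genes had counts in every library, with Myc the highest in TPM as the reads were counted. Levels are given as TPM, counts corrected for exon length and scaled to the same total in every library. All 10 genes reached 1 TPM in every library, against 21.8% of all genes, 38.7% of protein-coding genes and 32% of protein-coding genes with no gene on the other strand. All 10 also had at least 10 counts in every library. In bulk RNA, fewer cells of a type and less RNA per cell cannot be told apart.

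A limit touches every level here. Reads were counted with strand setting 1, which assigns a pair to the strand of its first read, and the files do not settle whether that matches how the libraries were made. Were the library stranded the other way, the counts of every gene would be reads from its opposite strand. Genes whose exons overlap an exon of the other strand (called opposed below) made up 16.18% of genes but took 55.1%, 69.1% and 67.3% of the counts of replicates 1, 2 and 3. Genes whose span overlaps no gene of the other strand (unopposed) were 70.09% of genes and took 38.7%, 25.6% and 27.8%. Myc, Max, Mnt, Mga and Mxd1 are unopposed, and Mxd3, Mlx, Mlxip, Mxi1 and Mxd4 are opposed. Of the 5 genes that overlap these opposed genes on the other strand, 4 had more counts per exon base than the network gene. The part of strand assignment in the levels was not tested.

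Myc (ENSMUSG00000022346.15, chromosome 15, 61985391 to 61990374, plus strand, mm10) had 3156, 1239 and 1713 counts over 2717 exon bases. Its level was 531, 243 and 371 TPM in replicates 1, 2 and 3, with a mean of 382 ± 144 TPM (SD, n = 3). Replicate 1 was highest and replicate 2 lowest, and the mean ranked 151st of 21764 protein-coding genes (percentile 99.3).

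Max (chromosome 12, 76937269 to 76962201, minus strand) had 344, 158 and 149 counts over 3598 exon bases. This obligate partner stood at 43.7, 23.4 and 24.4 TPM, a mean of 30.5 ± 11.4 TPM (SD, n = 3) and percentile 90.7. Replicate 1 stood above the other libraries, which lay close together.

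Among the MXD repressors, of which only Mxd1 is unopposed, 1 gene stood far above the others. Mxd3 (chromosome 13, 55325168 to 55329758, minus strand), described as an MXD member of proliferating precursor cells, had 650, 263 and 777 counts, or 143, 67.4 and 219.9 TPM. Its mean was 143 ± 76.3 TPM (SD, n = 3), percentile 97.8, and it was the only network gene with its highest TPM in replicate 3. Mxi1 (chromosome 19, 53310506 to 53375810, plus strand), the family member also named MXD2, stood at 7.32, 4.46 and 3.88 TPM, a mean of 5.22 ± 1.84 (SD, n = 3). Mxd1 (chromosome 6, 86647042 to 86669161, minus strand), the founding member, tied to terminal differentiation, stood at 6.27, 2.71 and 3.66 TPM, a mean of 4.22 ± 1.84 (SD, n = 3). Mxd4 (chromosome 5, 34173883 to 34187720, minus strand) was the lowest of the 10 at 4.31, 1.76 and 2.99 TPM, a mean of 3.02 ± 1.28 (SD, n = 3) and percentile 65.9. Its 28 counts in replicate 2 gave an exact Poisson 95% interval of 1.17 to 2.54 TPM, which covers counting error only.

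The larger repressors were low to moderate. Mnt (chromosome 11, 74830920 to 74845725, plus strand), the repressor most widely expressed beside MYC, stood at 16.6, 7.49 and 10.6 TPM, a mean of 11.5 ± 4.63 (SD, n = 3). Mga (chromosome 2, 119897228 to 119969581, plus strand), a very large factor with both a T-box and a MAX-binding region, stood at 11.9, 8.51 and 6.76 TPM, a mean of 9.07 ± 2.64 (SD, n = 3). Its 401, 245 and 176 counts over 15340 exon bases outnumbered those of Mnt, 168, 65 and 83 over 4627 bases, although its level per base was lower in 2 of 3 libraries.

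Levels within the MLX branch, both of opposed genes, lay close together. Mlx (chromosome 11, 101087277 to 101092207, plus strand) stood at 33.6, 17.1 and 14.7 TPM, a mean of 21.8 ± 10.3 (SD, n = 3). Mlxip (chromosome 5, 123394798 to 123457932, plus strand) stood at 30.3, 15.1 and 13.2 TPM, a mean of 19.5 ± 9.36 (SD, n = 3). Both had the same order of libraries, an order that Mga and Mxi1 had as well, and Mlx was slightly above Mlxip in each.

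**Figure D2:**
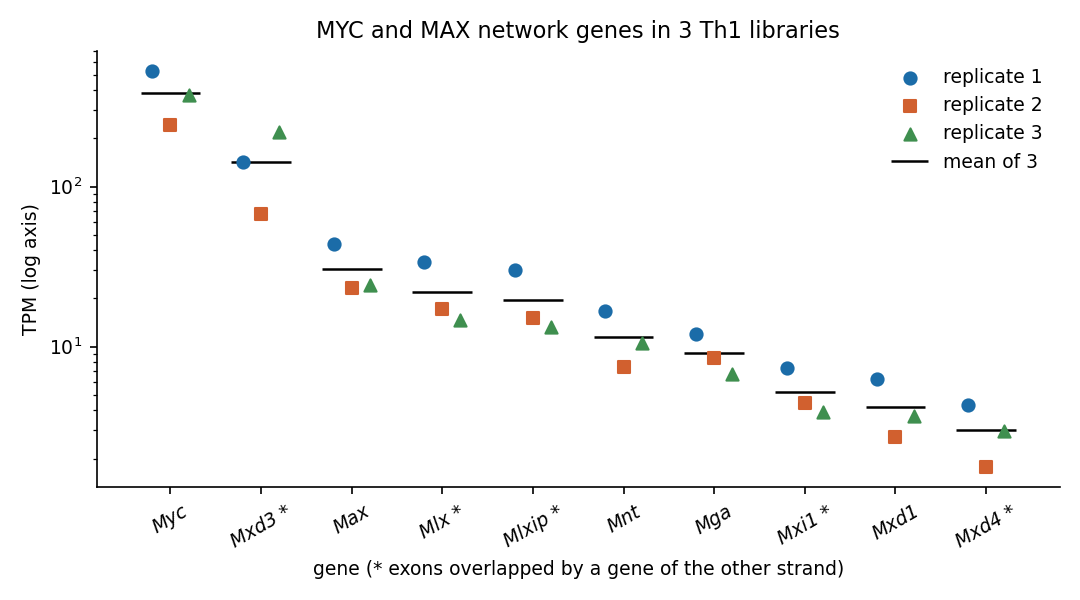
TPM on a log axis (y) of the 10 network genes (x, ordered by mean), with 1 point per replicate and a bar at the mean of 3. Myc lies between 243 and 531 TPM and Mxd4 between 1.76 and 4.31 TPM. Mxd3 is the only gene whose replicate 3 is highest. Asterisks mark opposed genes.

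Replicate 1 was the highest library for most network genes, as it was for most genes tested. TPM was highest in replicate 1 for 9 of 10 network genes, beside 70.9% of all genes tested and 90.2% of unopposed genes tested. Mxd3 was highest in replicate 3, as were 12.3% of all genes tested and 3.99% of the unopposed ones. None was highest in replicate 2, beside 16.7% of all and 5.85% of unopposed genes. TPM was lowest in replicate 2 for 6 network genes and in replicate 3 for 4. The share over all genes tested was not computed for the lowest library, so these counts are description only. With TPM computed over unopposed genes alone, Myc stood at 1885, 1621 and 2095 in replicates 1, 2 and 3, and Max at 155, 156 and 138. On that scale the 5 unopposed network genes were highest in replicate 1 for 1 gene, in replicate 2 for 2 and in replicate 3 for 2, beside 38.3%, 38.5% and 23.2% of unopposed genes tested. Their coefficients of variation between libraries, 29.1% to 43.6% in TPM, were 6.97% to 21.3% on that scale. The median over 4221 unopposed protein-coding genes moved likewise, from 39.0% to 17.3%.

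The balance of partners was read from ratios within a library, which are free of depth and of the shared denominator. Of 23 distinct ratios, 22 had 1 sign in every library and an exact two-sided sign-flip p = 0.25, the smallest that 3 libraries allow (Benjamini-Hochberg adjusted p = 0.261 over the 23), so no ratio could pass 0.05. Each ratio is therefore set against its SD between libraries. A log2 ratio uses TPM plus a pseudocount of 0.1, and each interval printed is an exact binomial 95% interval of the ratio of summed counts per exon base, for counting error only.

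Myc exceeded Max by 3.60, 3.37 and 3.92 on the log2 scale in the 3 libraries. The mean was 3.63 ± 0.28 (SD, n = 3), or 12.4-fold per exon base (95% interval 11.5 to 13.5). Mxd3 was the other gene above Max, by a log2 ratio of 1.71, 1.52 and 3.17, a mean of 2.13 ± 0.90 (SD, n = 3) and 4.49-fold per base (4.10 to 4.92). Every other network gene lay below Max in every library. Mlx was nearest at a mean log2 ratio of -0.52 ± 0.18 (SD, n = 3), followed by Mlxip at -0.68 ± 0.18, Mnt at -1.41 ± 0.22 and Mga at -1.72 ± 0.23. Mxi1 at -2.52 ± 0.13, Mxd1 at -2.85 ± 0.19 and Mxd4 at -3.32 ± 0.34 (SD, n = 3) were the lowest. Each of these ratios was larger than its own SD.

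**Figure D3:**
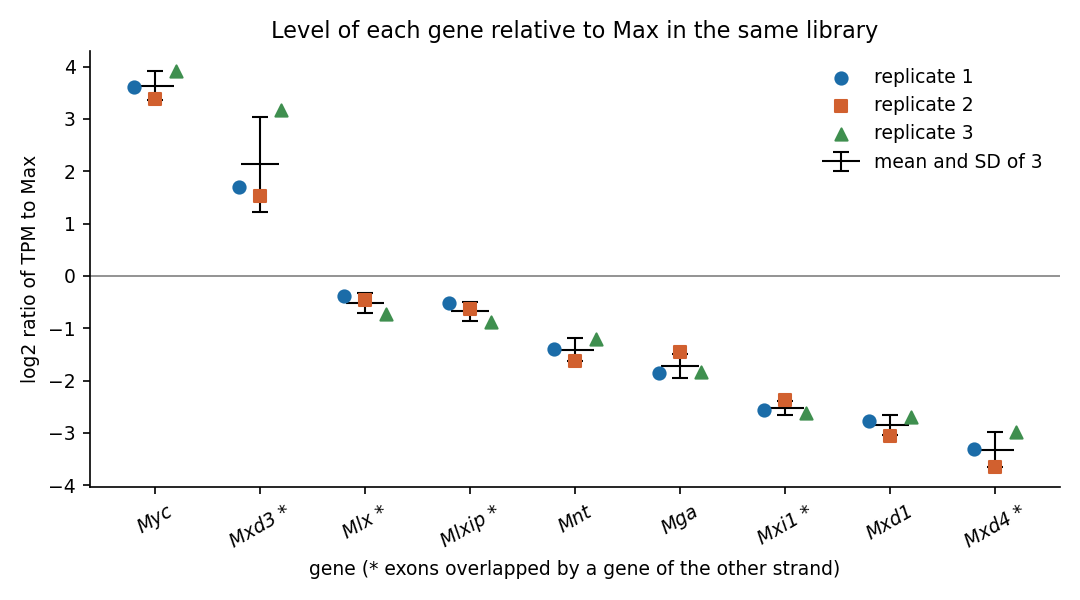
Log2 ratio of TPM to Max in the same library (y) for the other network genes (x), with points per replicate and the mean with SD of 3. Myc lies at 3.37 to 3.92 and Mxd3 at 1.52 to 3.17, and the remaining 7 genes lie below 0 in every replicate. Asterisks mark opposed genes.

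Neighbours in the order of levels are described only, since the same libraries set that order. For 8 of 9 pairs the log2 ratio had 1 sign in every library and a mean above its SD. Mxi1 over Mxd1 was the closest of these at 0.33 ± 0.32 (SD, n = 3), and without replicate 1 its mean of 0.39 was below its SD of 0.44. Mnt and Mga did not differ beyond their spread, at log2 ratios of 0.47, -0.18 and 0.64, a mean of 0.31 ± 0.43 (SD, n = 3; exact two-sided sign-flip p = 0.5). Mlx exceeded Mlxip by 0.15, 0.17 and 0.15 on the log2 scale, a small but even step of 0.16 ± 0.01 (SD, n = 3). The counting interval of that pair held a ratio of 1, at 1.11-fold per base (0.969 to 1.28), as did that of Mxi1 over Mxd1 at 1.24-fold (0.998 to 1.53). Myc exceeded its nearest neighbour, Mxd3, by 1.89 and 1.85 in replicates 1 and 2 and by 0.76 in replicate 3.

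Of the ratios of Myc to other network genes, those to Mnt, Mxd4 and Mxd1 varied least between libraries. Myc exceeded Mnt by a log2 ratio of 4.99, 5.00 and 5.12, a mean of 5.04 ± 0.07 (SD, n = 3) and 32.9-fold per base (29.4 to 37.0). It exceeded Mxd1 by 6.48 ± 0.13 (SD, n = 3), or 89.8-fold (77.3 to 105), and Mga by 5.35 ± 0.48. Against the opposed Mxd4 the ratio was 6.95 ± 0.07 (SD, n = 3), or 126-fold (107 to 149). Summed TPM of the unopposed repressors Mxd1, Mnt and Mga was exceeded by Myc 15.3-, 13.0- and 17.7-fold in replicates 1, 2 and 3.

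Over the whole network Myc held most of the TPM, as the reads were counted. It held 64.1%, 62.2% and 55.3% of the summed TPM of the 10 genes, a mean of 60.5% ± 4.64 (SD, n = 3). Max held 4.97% ± 1.21 and the MLX branch 6.71% ± 2.22. The 4 MXD genes together held 19.4%, 19.5% and 34.3%, of which Mxd3 alone held 17.2%, 17.2% and 32.8%. Myc exceeded the 6 repressing partners of MAX as a sum (the MXD genes, Mnt and Mga) by 2.81-, 2.63- and 1.50-fold. Mxd3, an opposed gene, made up most of that sum. Over the 5 unopposed genes alone Myc held 87.2% ± 1.94 (SD, n = 3) of their TPM.

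The 5 opposed network genes each overlap 1 gene of the other strand, and 4 of those 5 genes had more counts per exon base than the network gene. Mxd3 shares 104 bases of its 3′ UTR end (chromosome 13, 55325168 to 55325271, 5.00% of its exon bases) with Prelid1, a mitochondrial lipid carrier. Prelid1 had 473, 149 and 165 counts against 650, 263 and 777 for Mxd3, and it is the only one of the 5 with fewer counts per base, 0.891-fold. The log2 ratio of Mxd3 to Prelid1 was -0.48 in replicate 1, -0.12 in replicate 2 and 1.30 in replicate 3, so the pair changed order between libraries.

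Mlx shares 385 bases (chromosome 11, 101091823 to 101092207, 19.3% of its exon bases, UTR at its 3′ end) with Psmc3ip, a factor of meiotic recombination. Psmc3ip had 658, 317 and 589 counts, or 165, 93.0 and 191 TPM, and 6.59-fold more counts per base than Mlx. A gene known for meiosis thus had the higher count in every library. Mxd4 shares 514 UTR bases at its 3′ end with the antisense gene Gm42846 (chromosome 5, 34173887 to 34174887), all of whose exon bases lie in the overlap. Gm42846 had 506, 387 and 419 counts, 143-fold more per base than the 80, 28 and 43 counts of Mxd4.

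Coding bases were shared in the remaining pairs. Mlxip shares 267 bases at its 5′ end (chromosome 5, 123394798 to 123395064, of which 135 are coding) with the antisense gene Gm15747, which had 103, 171 and 130 counts and 4.31-fold more per base. Mxi1 shares 194 bases (chromosome 19, 53371573 to 53371766, of which 164 are coding) with Gm10197, annotated as protein-coding, 96.5% of whose exon bases lie in the overlap. Gm10197 had 226, 374 and 209 counts against 90, 47 and 37 for all of Mxi1, 130-fold more per base. In these last pairs the gene of the other strand was highest in replicate 2, where the network gene was not. Reads in these overlaps are told apart by strand alone. No exon of a network gene overlapped an exon on its own strand.

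**Figure D4:**
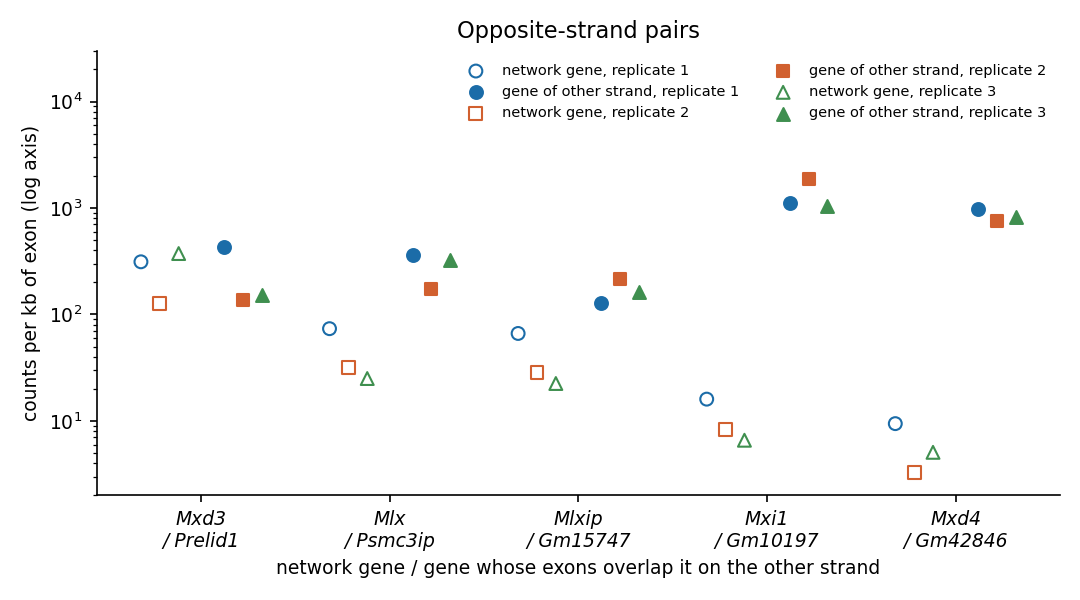
Counts per kb of exon on a log axis (y) for the 5 opposed network genes (open symbols) and the gene that overlaps each on the other strand (filled symbols), by pair (x) and replicate. The filled symbols lie above the open ones in every replicate except for Mxd3 and Prelid1, which cross.

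Spread between the replicates was tested for all 9469 genes that passed a filter on low counts, which all 10 network genes did. None of the 10 varied more than genes of its level by edgeR's deviance at the trended dispersion (adjusted p under 0.05), beside 0.253% of all genes tested. At an unadjusted p under 0.05 there was 1, Mxd3, beside 6.44% of all genes. Its adjusted p was 0.471 in edgeR, or 0.461 there with the size factors of DESeq2. Without replicate 1 it did pass in edgeR, at an adjusted p of 0.0305, and without replicates 2 and 3 its adjusted p was 0.918 and 1.00. The call on Mxd3 thus depended on which libraries were used.

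Against counting noise alone, by a chi-square test on edgeR's TMM library sizes, 5 of 10 network genes passed, beside 59.6% of all genes tested. They were Mxd3 (adjusted p = 3.31e-85 on edgeR's TMM sizes), Myc (7.14e-26), Mlxip (1.05e-06), Mga (0.0266) and Mlx (0.0367). Mlx did not pass with the size factors of DESeq2 (adjusted p = 0.0569 in the same test), nor Mga with no filter (adjusted p = 0.0672 on edgeR's TMM sizes). That left 4 each time, beside 57.3% and 35.7% of all genes tested. Max, Mnt, Mxd1, Mxd4 and Mxi1 did not pass, with adjusted p from 0.0860 to 0.525 on the same edgeR sizes. Leaving out 1 library gave 3 in each case: Myc, Mxd3 and Mga without replicate 1, Mxd3, Mlx and Mlxip without replicate 2, and Myc, Mxd3 and Mlxip without replicate 3. The shares of all genes tested in those fits were 25.6%, 42.4% and 47.3%. In a fit of unopposed genes alone, 2 of the 5 network genes tested passed, Myc and Mga, beside 36.9% of the genes.

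The 5 genes nearest to Myc over the 3 libraries were Pfn1, Cd2, Odc1, Cd5 and Dusp2. Likeness was the Euclidean distance of log2(TPM + 0.1) over 3 libraries among 14395 unopposed protein-coding genes, so it reflects level and library order together, and libraries share their depth and composition. Pfn1, the actin-binding protein profilin, lay at a distance of 0.0920 and had 382 ± 149 TPM (SD, n = 3). Cd2, a T cell adhesion receptor, followed at 0.197, Odc1, the first enzyme of polyamine synthesis and a textbook MYC target, at 0.238, Cd5, a receptor signal dampener, at 0.255, and Dusp2, a phosphatase of MAP kinases, at 0.266. For Max the 5 nearest were Rrp1b at 0.0245, Ephx1 at 0.0542, Slc35e1 at 0.0624, Mex3c at 0.0707 and Gak at 0.0828.

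Of the other factors that bind or could bind the E-box, the MYC paralogs had no count. Mycn and Mycl, and the MLXIP paralog Mlxipl (ChREBP), had 0 counts in every library. The floor of 3 counts allows levels of up to 0.416, 0.486 and 0.537 TPM for Mycn in replicates 1, 2 and 3, up to 0.339, 0.396 and 0.438 for Mycl, and up to 0.248, 0.289 and 0.319 for Mlxipl, for counting error only. Usf2 stood at 18.8 ± 7.24 TPM and Usf1 at 6.02 ± 2.00 TPM (SD, n = 3), with Usf2 opposed. Myc was thus the only MYC family gene with counts in these libraries.

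Genes of the MYC cofactors had counts throughout. Each library held all 12 coactivator genes listed at 1 TPM or more, beside 38.7% of protein-coding genes. The list's median was 24.0 ± 8.74 TPM (SD, n = 3). The median of the 10 network genes was 15.7 ± 6.69 and that of the 8427 protein-coding genes at 1 TPM in every library 11.5 ± 3.69. The highest were Kat5, the TIP60 acetyltransferase, at 86.8 ± 7.24 TPM and opposed by Rnaseh2c, Wdr5, which docks MYC on chromatin, at 30.7 ± 11.2, and the ATPase Ruvbl1 at 30.3 ± 14.4. Trrap, the scaffold that MYC binds, was lowest at 5.93 ± 1.45 TPM. Of the 12 coactivators 5 passed the test of counting noise, beside 59.6% of all genes tested. None of the 66 tested genes of the partner and target lists passed the edgeR trend test, at an adjusted or an unadjusted p under 0.05, beside 0.253% and 6.44% of all genes tested.

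Corepressors of the MXD proteins and MNT stood at a like level. The SIN3 and HDAC list had all 14 genes at 1 TPM or more in each library, beside 38.7% of protein-coding genes. Its median was 27.8 ± 7.16 TPM (SD, n = 3). Rbbp7, a histone-binding subunit, had 131 ± 62.1 TPM, the corepressor Ncor1 80.5 ± 9.22 and the deacetylase Hdac1 59.8 ± 18.3, of which Rbbp7 and Ncor1 are opposed. Ing2, a reader of methylated histone H3, was lowest at 6.78 ± 3.66 TPM. The complex that MGA joins, listed with 13 genes of which 12 reached 1 TPM in every library, had a median of 12.4 ± 5.32 TPM. Hdac1, also on the SIN3 list, the ubiquitin ligase Rnf2 at 41.9 ± 14.3 (opposed) and Hdac2 at 32.1 ± 11.3 led it, and Tfdp2, a partner of E2F factors, was lowest at 1.02 ± 0.328 TPM.

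Genes that control MYC turnover were more uneven. Of 12 listed, 10 reached 1 TPM in every library, beside 38.7% of protein-coding genes. The list's median was 6.60 ± 2.69 TPM (SD, n = 3). Gsk3a, a kinase that marks MYC for decay, had 123 ± 9.16 TPM and is opposed by 9130221H12Rik. The ubiquitin ligase Huwe1 had 37.7 ± 10.5 and the deubiquitinase Usp36 34.5 ± 10.5 TPM. Cip2a, which shields MYC from dephosphorylation, was lowest at 0.418 ± 0.323 TPM.

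Targets of both branches differed in how they could be read. The 18 MYC targets listed were all at 1 TPM or more in each library, beside 38.7% of protein-coding genes. These targets had a median of 68.9 ± 26.9 TPM (SD, n = 3), and 56.1 ± 25.8 over the unopposed ones. The nucleolar proteins Npm1 at 848 ± 247 and Ncl at 408 ± 90.5 and the enzyme Odc1 at 407 ± 196 TPM were highest, all unopposed. Tfap4, a factor that MYC induces in T cells, was lowest at 4.35 ± 2.25. Of the MLXIP-MLX targets, Txnip had 237, 67 and 82 counts, or 20.5 ± 12.4 TPM, while the antisense gene Gm15441 across 606 of its exon bases had 2218, 2331 and 1728 counts. The counts of Arrdc4, a related arrestin-like gene, were 2, 1 and 0, below 3 in every library.

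**Figure D5:**
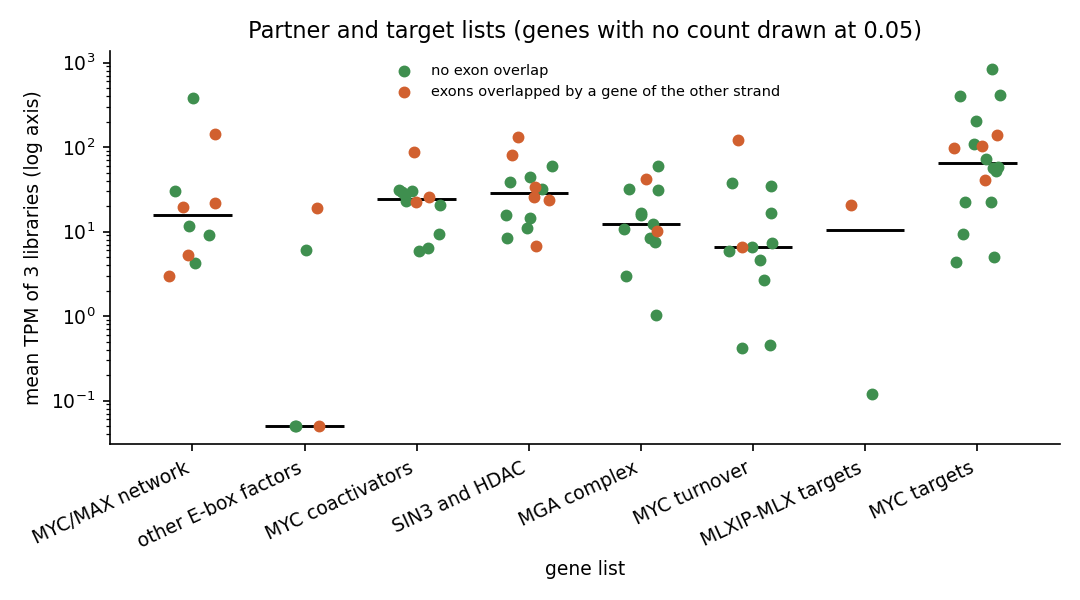
Mean TPM of 3 libraries on a log axis (y) for each gene of the network and of the partner and target lists (x), with a bar at the median of these means and opposed genes in orange. Genes with no count are drawn at the bottom. MYC targets reach 848 TPM (Npm1), and 3 of the 5 other E-box factors have no count.

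The labelled cell type was checked on marker genes. All 7 T cell genes listed reached 1 TPM in every library (summed TPM 1524 to 3545), beside 38.7% of protein-coding genes. Cd4 had 1234, 636 and 659 counts against 2, 1 and 0 for Cd8a and 34, 16 and 10 for Cd8b1, the CD8 chains. Th1 genes were uneven, with 4 of 7 listed genes at 1 TPM in every library and a summed TPM of 30.2 to 43.3. Stat4 had 197, 80 and 88 counts, Il12rb2, opposed by Serbp1, 79, 117 and 62, and Il18r1 52, 55 and 32. The defining genes were low, Tbx21 with 19, 7 and 11 counts and Ifng with 1, 2 and 0. Cxcr3 had 6, 2 and 2 counts and Il18rap 2, 0 and 0. Of other cell types, 1 of 2 CD8 genes (summed TPM 3.97 to 10.7) and 1 of 5 B cell genes reached 1 TPM (summed TPM 27.0 to 48.7), 2 of 6 myeloid genes (137 to 181, of which Csf1r, opposed by Hmgxb3 over 871 bases, had 129 to 175), 1 of 3 erythroid genes and 0 of 3 natural killer genes. Besides Cd8b1 and Csf1r, the genes that reached it were the B cell gene Cd79a with 86, 133 and 83 counts and the myeloid gene Cd68 with 22, 19 and 12. The erythroid gene was Alas2, opposed by Apex2, with 11, 22 and 27 counts. No count was found for 4 of 5 B cell genes (Ms4a1 among them) and 3 of 6 myeloid genes (Lyz2 and S100a8 among them). Ncr1 was among 2 of 3 natural killer genes with no count, and Hbb-bs among 2 of 3 erythroid genes. Summed T cell TPM was highest in replicate 1 and lowest in replicate 2, as was Myc. Of all unopposed genes tested, 90.2% were highest in replicate 1 too. The part of summed T cell TPM in the network levels was not tested.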

How the data were processed

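RNA of 3 Th1 libraries was sequenced. Each deposited table holds raw counts. The authors counted read pairs, per the file headers, over exons with featureCounts 1.4.6-p4, using GENCODE vM13 on mm10, strand setting 1, both mates aligned, after an alignment step named star2. Pairs in an overlap of opposite strands are thus split by strand alone. No normalization is stated per the file headers.

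Deposited counts and exon lengths were turned into TPM here. Symbols, biotypes and UTRs came from GENCODE vM21 of the same assembly, which named 50376 of 50600 genes (99.56%). Overlaps were found with bedtools 2.31.1, and promoter windows are RefSeq's. Libraries held 2950658 to 4442901 counts, and 3 counts, the floor used, are worth 1.37, 1.60 and 1.77 TPM at 1 kb of exon.

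Spread was modelled in edgeR 4.0.16 (R 4.3.3) with only an intercept, TMM scaling and filterByExpr at a minimum count of 10. Both spread tests are one-sided with 2 degrees of freedom, adjusted by Benjamini-Hochberg over 9469 genes. Fits with a library left out had fewer degrees of freedom and were adjusted over 9677 to 10185 genes. The fit with no filter was adjusted over 19067 genes and that of unopposed genes over 4407. Both tests were also run on simulated counts, with the outcome not given here. DESeq2 1.42.0 was an alternative, beside other scalings, filters, pseudocounts and left-out libraries. Exact tests and intervals used scipy 1.17.1.

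The members, lists and tests were chosen with earlier results of these data known. Named genes are the 10 members, genes whose exons overlap theirs with at least 10 summed counts, the 3 highest and the 1 lowest of each list, every gene of the other E-box and MLXIP-MLX lists, and the 5 nearest to Myc and to Max. Genes of promoter matches and of the marker check were named as well.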

Additional observations from a re-analysis of the deposited data

How the results depend on the processing

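The median level of the 10 network genes, 15.7 TPM, was 76.4 with TPM over unopposed genes and 8.31 with TMM-scaled CPM per kilobase. Those are other units, and the first divides the same counts by a smaller sum, which raises every level. Myc's share of 60.5% became 53.4% with CPM in place of TPM and 87.2% over unopposed members. With CPM, which is not corrected for exon length, 4 log2 ratios reversed: Mlx to Mlxip (-1.89), Mnt to Mga (-1.41), Mlxip to Max (0.53) and Mga to Max (0.36). In CPM, also another unit, the list medians were 59.1 for coactivators, 76.4 for SIN3 and HDAC genes and 21.9 for the MGA complex. They were 25.7 for turnover genes, 17.2 for MLXIP-MLX targets and 142 for MYC targets. Over unopposed members the MLXIP-MLX targets stood at 0.119 TPM, which is Arrdc4 alone. The count of members beyond the edgeR trend was 0 to 1 with a library left out (1 without replicate 1), and beyond counting noise 3 in each case against 5, or 4 with DESeq2 size factors and 4 with no filter. All genes beyond the edgeR trend numbered 24 of 9469 (0.253%), 44 of 19067 with no filter (0.231%) and 54 of 4407 among unopposed genes (1.23%). Without replicates 1, 2 and 3 they numbered 21 (0.217%), 3 (0.0296%) and 8 (0.0785%). Beyond counting noise they numbered 5642 (59.6%), but 2476 without replicate 1 (25.6%) and 1627 among unopposed genes (36.9%). That share was 42.4% and 47.3% without replicates 2 and 3, 57.3% with DESeq2 size factors and 35.7% with no filter. DESeq2 marked no member as a dispersion outlier. Levels of single members moved by over 1 SD for 10 of 10 with TPM over unopposed genes and for 8 of 10 with TMM-scaled CPM per kilobase. Because the unit changed, these moves do not show how stable a level is. Mxi1 to Mxd1 fell to a log2 ratio of 0.0087 with CPM. No other alternative run reversed a log2 ratio. No paired analysis was possible because all libraries form 1 group. With 2950658 to 4442901 counts a library, genes under about the floor of 3 counts could not be told from 0.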
